A study of Mus musculus with 6 samples.

Results

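The carboxylesterases are the 10 genes Ces1b, Ces1c, Ces1d, Ces1e, Ces1f, Ces1g, Ces2a, Ces3a, Ces3b and Ces4a, matched exactly to the gene symbols of a mouse liver count table with 35976 rows. All 10 were found and all 10 passed the filter on low counts. The comparison was between 3 libraries of genotype IRE1PKO and 3 of genotype IRE1fl, all from livers of male mice given HFD (taken to mean a high-fat diet) that fasted for 16 hours and then fed for 4 hours. IRE1, encoded by Ern1, senses unfolded proteins in the endoplasmic reticulum. What PKO stands for is not spelled out in the labels; the title of the series names signalling from pituitary to liver. No source used here gives the promoter that drives the deletion or the age of the mice.

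Carboxylesterases are serine hydrolases that cleave ester, thioester and amide bonds in drugs, pesticides and lipids. Most sit in the lumen of the endoplasmic reticulum of hepatocytes, while Ces1c is secreted and supplies the esterase activity of mouse plasma. Tandem duplication enlarged the family in rodents, so that most mouse genes have no single human counterpart. Several members also act on stored lipid: Ces1d, known as triacylglycerol hydrolase, releases fatty acids from triglyceride for very low density lipoprotein assembly.

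The genes lie in a pair of clusters on chromosome 8 (RefSeq, GRCm38.p6, the same build as mm10). Ces1b to Ces1g lie on the minus strand, with Ces1b starting at 93056725 and Ces1g ending at 93337209. Ces2a to Ces4a lie on the plus strand, with Ces2a starting at 104734003 and Ces4a ending at 105150109. Neighbouring genes are copies of each other to different degrees. Aligned over their GENCODE M21 principal transcripts, Ces3a and Ces3b were 95.4% identical, and Ces1b and Ces1c 91.4%. The first 120 coding bases of Ces3a and Ces3b are shown because the split of reads between these copies bears on both genes, with the 16 bases that differ in capitals.
Ces3a, coding start: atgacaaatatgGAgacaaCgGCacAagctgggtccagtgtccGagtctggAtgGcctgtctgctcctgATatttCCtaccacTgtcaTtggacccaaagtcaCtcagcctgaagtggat
Ces3b, coding start: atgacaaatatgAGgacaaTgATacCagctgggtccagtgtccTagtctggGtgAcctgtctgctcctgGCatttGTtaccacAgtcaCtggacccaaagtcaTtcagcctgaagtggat

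Read assignment is therefore less certain for some members than for others. Of all 50-base stretches of the Ces3a transcript, 30.9% also occurred in a Ces3b transcript, and 26.1% of those of Ces3b occurred in Ces3a. For Ces2a the share found in any other annotated transcript was 22.2%, most of it from Gm7208, an annotated pseudogene that was not analysed here. Ces1c shared 17.0% and Ces1b 11.6% of their stretches, most of them with each other. The share was between 1.28% and 3.21% for Ces1d, Ces1e, Ces1f and Ces1g, and 0 for Ces4a. No source used here gives the read length or the handling of reads with several matches, so 50 bases is a yardstick only.

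RefSeq promoter windows, 250 bases before to 50 after a start site, were found for 7 of the 10 genes. Those of Ces1b and Ces1c are shown because the windows are near copies while the gene values, given further on, differ. Over 273 aligned bases they were 92.7% identical, and capitals mark the longest shared run of 58 bases.
Ces1b, chr8:93079891-93080190, minus strand: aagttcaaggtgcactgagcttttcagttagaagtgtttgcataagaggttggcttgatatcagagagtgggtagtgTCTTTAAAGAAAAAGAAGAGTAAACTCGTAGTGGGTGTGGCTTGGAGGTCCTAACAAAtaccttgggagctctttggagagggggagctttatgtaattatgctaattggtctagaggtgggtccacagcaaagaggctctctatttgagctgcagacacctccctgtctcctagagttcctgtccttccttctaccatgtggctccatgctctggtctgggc
Ces1c, chr8:93131234-93131533, minus strand: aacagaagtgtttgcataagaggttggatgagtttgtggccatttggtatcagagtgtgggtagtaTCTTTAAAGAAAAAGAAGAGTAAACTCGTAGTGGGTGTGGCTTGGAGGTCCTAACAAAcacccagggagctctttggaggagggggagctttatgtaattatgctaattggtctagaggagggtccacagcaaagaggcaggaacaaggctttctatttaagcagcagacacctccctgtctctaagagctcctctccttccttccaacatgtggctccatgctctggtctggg

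The windows of Ces3b and Ces4a are shown because these genes had the lowest fold changes, and those of Ces2a and Ces2e, a further carboxylesterase gene of the same cluster, because their values moved in opposite directions. Capitals mark matches to TATAAA (the TATA box) and CCAAT on either strand.
Ces3b, chr8:105083505-105083804, plus strand: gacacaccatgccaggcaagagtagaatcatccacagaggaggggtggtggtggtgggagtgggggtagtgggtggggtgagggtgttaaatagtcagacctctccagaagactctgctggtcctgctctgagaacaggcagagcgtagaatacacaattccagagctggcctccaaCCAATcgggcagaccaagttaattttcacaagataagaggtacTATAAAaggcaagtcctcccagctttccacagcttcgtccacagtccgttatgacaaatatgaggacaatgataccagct
Ces4a, chr8:105131550-105131849, plus strand: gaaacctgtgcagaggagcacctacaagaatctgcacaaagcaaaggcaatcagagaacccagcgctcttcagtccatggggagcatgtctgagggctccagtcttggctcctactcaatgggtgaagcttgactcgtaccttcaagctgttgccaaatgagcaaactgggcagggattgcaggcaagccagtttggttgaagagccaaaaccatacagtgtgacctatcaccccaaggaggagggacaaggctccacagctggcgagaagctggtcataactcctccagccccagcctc
Ces2a, chr8:104733753-104734052, plus strand: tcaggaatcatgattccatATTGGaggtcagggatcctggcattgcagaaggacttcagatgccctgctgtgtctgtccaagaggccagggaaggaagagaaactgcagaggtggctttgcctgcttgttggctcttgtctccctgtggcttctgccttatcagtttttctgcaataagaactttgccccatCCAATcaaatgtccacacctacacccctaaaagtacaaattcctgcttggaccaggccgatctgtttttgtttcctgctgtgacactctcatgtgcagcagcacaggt
Ces2e, chr8:104926010-104926309, plus strand: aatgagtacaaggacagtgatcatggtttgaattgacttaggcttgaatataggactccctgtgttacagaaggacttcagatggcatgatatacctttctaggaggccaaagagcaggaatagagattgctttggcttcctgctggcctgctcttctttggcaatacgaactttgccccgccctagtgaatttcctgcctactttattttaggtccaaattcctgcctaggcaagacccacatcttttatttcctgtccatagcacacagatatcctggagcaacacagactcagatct

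Among all 32851 RefSeq promoter windows, 13.6% held TATAAA and 37.4% held CCAAT. Ces3b held both and Ces2a held CCAAT at 2 places, while neither was found in the windows of Ces4a and Ces2e. TATAAA was also found in the window of Ces1g, and CCAAT in those of Ces1b, Ces1c and Ces1g. Other motifs were searched as well and are not reported here. A match is a description of the letters and not a binding site.

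Of the 10 carboxylesterases, 5 were lower in IRE1PKO livers (Ces1b, Ces2a, Ces3a, Ces3b and Ces4a) and none was higher, in the quasi-likelihood test of edgeR, with Benjamini-Hochberg adjustment over 14954 genes and a threshold of 0.05. Over all tested genes 3.86% were called lower and 5.68% higher, 9.54% in either direction. The log2 fold changes of the 5 ran from -3.16 in Ces4a to -0.53 in Ces3a. Their median over the 10 genes was -0.42, beside -0.0014 over all tested genes. The groups did not overlap in 6 genes that were lower in IRE1PKO and in 1, Ces1f, that was higher, where 15.0% and 16.0% of all tested genes had such groups (31.0% in either direction). In bulk liver RNA, fewer cells of a type and less RNA per cell cannot be told apart.

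**Figure D1:**
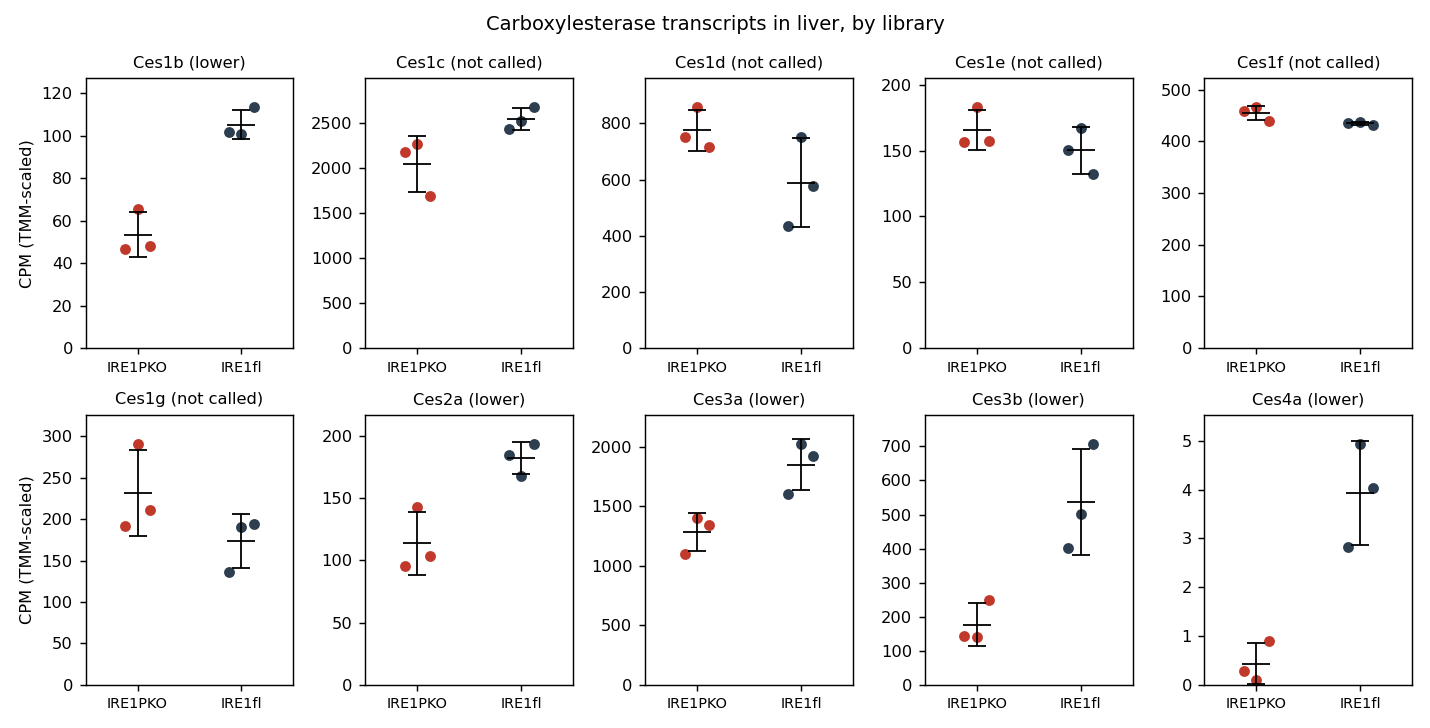
Counts scaled to library size (CPM, with TMM scaling, vertical axis from 0) of each of the 10 carboxylesterases in the IRE1PKO and the IRE1fl libraries. Points are libraries, bars the mean ± SD (n = 3 each), and the heading of each panel gives the edgeR call. All IRE1PKO points lie below all IRE1fl points in the 5 genes called lower and in Ces1c.

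Library totals ran from 35776219 to 39277435 counts, and across genes, which are not independent replicates, r of log2 CPM was 0.981 to 0.987 for pairs of libraries of the same genotype and 0.958 to 0.974 for other pairs. Liver Ern1 had 45.7, 36.6 and 44.2 CPM in IRE1PKO and 61.2, 49.3 and 60.8 CPM in IRE1fl. It was called lower (log2 fold change -0.44, SE 0.11, edgeR adjusted p = 0.0357), which checks no label if the deletion lies outside the liver. In all, 849 genes were called higher and 577 lower, or 1148 and 415 with library totals as the only scaling, where the median of all genes was 0.07. Of 8 listed hepatocyte markers, 7 were analysed, and their summed level was 74829 to 93837 CPM in IRE1PKO and 81079 to 97800 CPM in IRE1fl. Alb made up most of that sum, with a mean of 64302 CPM in IRE1PKO and 63170 CPM in IRE1fl. Of the 7 hepatocyte markers, 2 were lower, Cps1 (log2 fold change -1.16) and Serpina1a (-0.90). The median of the 7 was -0.28, and Alb (0.03) and Ttr (0.18) had positive values. All 5 stellate cell markers were higher, with a sum of 363 to 391 CPM in IRE1PKO and 194 to 222 CPM in IRE1fl. Of 5 sinusoidal endothelial markers 2 were higher (164 to 218 CPM in IRE1PKO, 140 to 157 CPM in IRE1fl), and of 6 macrophage markers none was called (316 to 438 CPM in IRE1PKO, 244 to 349 CPM in IRE1fl). The 4 cholangiocyte and the 4 lymphocyte markers summed to 5.89 to 8.93 and 2.11 to 3.01 CPM in IRE1PKO, and to 13.3 to 15.9 and 4.02 to 4.77 CPM in IRE1fl, and 1 gene of each list was lower. These were Sox9 (mean 5.02 CPM in IRE1PKO, 12.2 CPM in IRE1fl) and Cd4 (0.596 CPM in IRE1PKO, 2.55 CPM in IRE1fl), most of the IRE1fl sum of their lists. The other genes of both lists were not called, and Krt19 and Cd79a had positive log2 fold changes (0.37 and 0.76). Apart from Cfd, Lgals4 and Fabp2, the listed markers of adipocytes, intestine and pancreas were near 0. Of these, Lep, Cdx2, Prss2 and Ctrb1 had no count in any library. Cfd was not called and Fabp2 was higher, and each made up most of its list's sum. Lgals4, on the intestinal list, had a mean of 26.4 CPM in IRE1PKO and 23.6 CPM in IRE1fl and was not called. The part of these cell types in the carboxylesterase values was not tested.

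Ces1c, the plasma carboxylesterase, was the most abundant member per length in both genotypes. It had 1116 ± 171 CPM per kilobase of transcript in IRE1PKO and 1390 ± 66.5 in IRE1fl (SD, n = 3 each), on the principal transcript of GENCODE M21. Ces3a was next with 627 ± 78.5 CPM per kilobase in IRE1PKO and 904 ± 106 in IRE1fl, followed by Ces1d with 386 ± 36.7 in IRE1PKO and 294 ± 79.0 in IRE1fl. Ces3b stood in place 7 of the 10 in IRE1PKO with 73.5 ± 25.9 CPM per kilobase, and in place 5 in IRE1fl with 223 ± 64.7, where Ces1f (226 ± 1.25) lay within its spread. Ces1e and Ces1g did not differ beyond their spread in either genotype. Ces1e had 79.9 ± 7.26 CPM per kilobase in IRE1PKO and 72.4 ± 8.48 in IRE1fl, and Ces1g had 97.0 ± 21.9 in IRE1PKO and 72.8 ± 13.5 in IRE1fl. Ces4a was the least abundant, at 0.177 ± 0.172 CPM per kilobase in IRE1PKO and 1.62 ± 0.436 in IRE1fl.

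Within the Ces1 cluster, Ces1b was the only member called. It had 46.8, 65.4 and 47.9 CPM in IRE1PKO libraries 1, 2 and 3 and 102, 101 and 113 CPM in IRE1fl libraries 1, 2 and 3. Every IRE1PKO library lay below every IRE1fl library, and library 2 was the highest of IRE1PKO. Ces1b fell by 0.98 on the log2 scale (SE 0.13), to 50.8% of its IRE1fl level (edgeR adjusted p = 0.00147). Leaving out any 1 library moved its log2 fold change, which ran from -1.15 to -0.89, but it stayed past the threshold, with an adjusted p of at most 0.00981.

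Its neighbour Ces1c had 2173, 2264 and 1684 CPM in IRE1PKO and 2431, 2521 and 2671 CPM in IRE1fl. The groups did not overlap, but the gene was not called, with a log2 fold change of -0.32 (SE 0.13, edgeR adjusted p = 0.15). Ces1b stood at 0.0215, 0.0289 and 0.0285 of the Ces1c level in the IRE1PKO libraries and at 0.0418, 0.0399 and 0.0424 of it in the IRE1fl libraries (ratios of CPM). All 3 IRE1PKO ratios were below all 3 IRE1fl ratios, which gives an exact two-sided permutation p of 0.1, the smallest that 3 against 3 libraries allow. The promoter windows of this pair, printed above, share most of their letters.

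Ces1d, the triacylglycerol hydrolase, had 751, 857 and 715 CPM in IRE1PKO and 436, 752 and 577 CPM in IRE1fl. IRE1fl library 2 reached the level of IRE1PKO library 1, so the groups overlapped, and the log2 fold change of 0.40 (SE 0.18) did not pass (edgeR adjusted p = 0.208). Without IRE1fl library 2 it was 0.61 and passed (adjusted p = 0.0399). With any other library left out it did not pass, and it was 0.22 without IRE1fl library 1 (adjusted p = 0.382). Ces1g, whose loss in mice is known to raise liver fat, had 192, 291 and 212 CPM in IRE1PKO and 137, 191 and 194 CPM in IRE1fl. Its lowest IRE1PKO library lay between the IRE1fl libraries, and the log2 fold change was 0.41 (SE 0.19, edgeR adjusted p = 0.217).

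Ces1e, or egasyn, holds the enzyme beta-glucuronidase (encoded by Gusb) in the endoplasmic reticulum. It had 157, 183 and 157 CPM in IRE1PKO and 151, 168 and 132 CPM in IRE1fl, which overlapped. The log2 fold change was 0.14 (SE 0.11, edgeR adjusted p = 0.462), and that of Gusb was 0.27 (SE 0.11, adjusted p = 0.143). Ces1f, whose transcript was 75.5% identical to that of Ces1d, varied least within a group for its level. It had 458, 466 and 440.1 CPM in IRE1PKO and 434, 437 and 432 CPM in IRE1fl. Its groups did not overlap, yet the difference was small, with a log2 fold change of 0.07 (SE 0.09, edgeR adjusted p = 0.701).

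Ces2a belongs to the Ces2 enzymes, which favour esters with a small acyl and a large alcohol group. It had 95.3, 143 and 103 CPM in IRE1PKO and 185, 168 and 194 CPM in IRE1fl. All IRE1PKO libraries were below all IRE1fl libraries, with IRE1PKO library 2 nearest to them. Ces2a fell by 0.68 on the log2 scale (SE 0.14, edgeR adjusted p = 0.0169). That call was lost without IRE1PKO library 1, IRE1PKO library 3 or IRE1fl library 3 (adjusted p of 0.0627, 0.0594 and 0.0761).

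Ces3a and Ces3b are adjacent liver esterases and the nearest copies among the 10. Ces3a had 1102, 1405 and 1344 CPM in IRE1PKO and 1606, 2023 and 1918 CPM in IRE1fl. Library 1 was the lowest of each genotype, and the groups did not overlap. Ces3a fell by 0.53 on the log2 scale (SE 0.13, edgeR adjusted p = 0.0277). The Ces3a call was lost without IRE1PKO library 1 or 2 or IRE1fl library 2 or 3, with an adjusted p up to 0.1195.

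Ces3b had 142, 139 and 248 CPM in IRE1PKO and 403, 501 and 707 CPM in IRE1fl. Library 3 was the highest of each genotype, and the highest IRE1PKO library lay below the lowest of IRE1fl. Ces3b fell by 1.60 on the log2 scale (SE 0.32), to 32.9% of its IRE1fl level (edgeR adjusted p = 0.0394). This call too was lost without IRE1PKO library 1 or 2 or IRE1fl library 2 or 3 (adjusted p up to 0.119), and without the filter on low counts (0.0998). The Ces3b to Ces3a ratio of CPM was 0.129, 0.0991 and 0.185 in IRE1PKO and 0.251, 0.248 and 0.369 in IRE1fl, with groups that did not overlap (exact two-sided permutation p = 0.1, the smallest possible). A sum of the pair does not depend on how counted reads were split between them. Reads left uncounted for matching both genes would be missing from the sum as well. The sum had 1244, 1545 and 1593 CPM in IRE1PKO and 2009, 2523 and 2625 CPM in IRE1fl, and fell by 0.71 on the log2 scale (SE 0.14, edgeR adjusted p = 0.00885). Without IRE1PKO library 1 its value was -0.60 and did not pass (adjusted p = 0.0518).

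Ces4a, the last gene of the cluster, had the lowest fold change. It had 11, 4 and 37 counts in IRE1PKO libraries and 102, 174 and 150 counts in IRE1fl libraries, or 0.282, 0.109 and 0.904 CPM in IRE1PKO and 2.82, 4.94 and 4.04 CPM in IRE1fl. Each IRE1PKO library was below each IRE1fl library, with IRE1PKO library 3 well above the others of its genotype. The 4 counts of IRE1PKO library 2 lay near 3 counts, taken as the floor, so the size of the fall is uncertain. Ces4a fell by 3.16 on the log2 scale (SE 0.59), to 11.2% of its IRE1fl level (edgeR adjusted p = 0.0144). The value was -4.29 without IRE1PKO library 3, and the call was lost without IRE1PKO library 1 (adjusted p = 0.0747) or IRE1fl library 3 (0.0512). Its transcript shared no 50-base stretch with another annotated transcript.

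**Figure D2:**
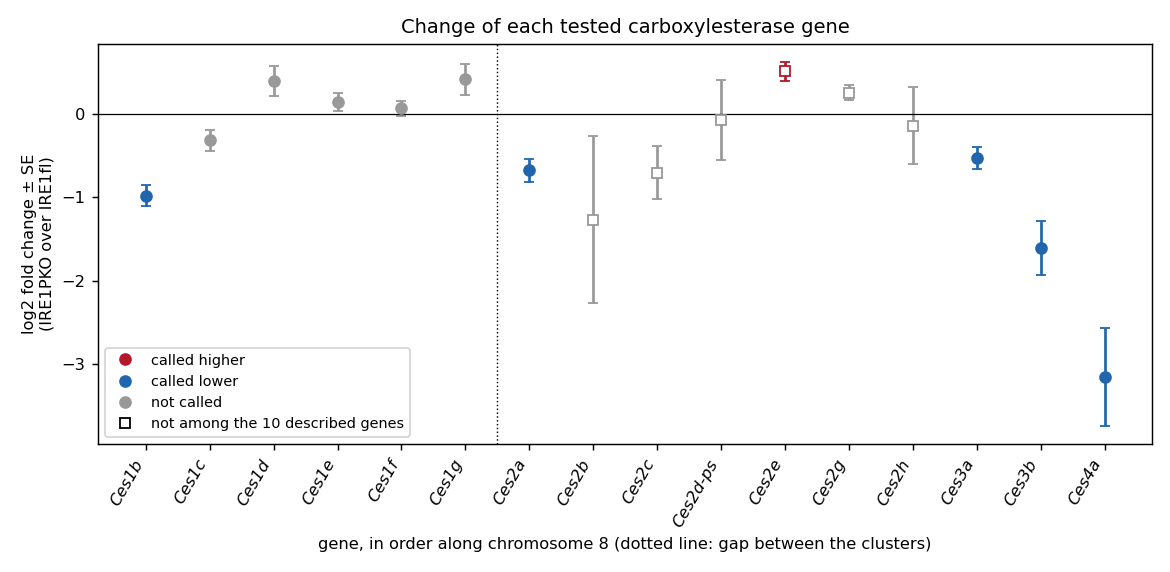
Log2 fold change (IRE1PKO over IRE1fl, ± SE, edgeR, 3 libraries each) of the 16 tested carboxylesterase genes in their order along chromosome 8, with filled circles for the 10 described genes and open squares for the others. Ces3a, Ces3b and Ces4a, at the end of the second cluster, were all called lower, and Ces2e in the same cluster was called higher.

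The table held 10 further carboxylesterase rows, of which 6 passed the filter on low counts, and 1 of these was higher and none lower. Ces2e had 333, 315 and 326 CPM in IRE1PKO and 250.3, 242 and 192 CPM in IRE1fl, with groups apart. Ces2e rose by 0.51 on the log2 scale (SE 0.11, edgeR adjusted p = 0.0159), a call lost without IRE1PKO library 1 (adjusted p = 0.065). The ratio of Ces2e to Ces2a CPM was 3.49, 2.21 and 3.15 in IRE1PKO and 1.35, 1.44 and 0.994 in IRE1fl. Its groups had to lie apart, because all IRE1PKO libraries were higher in Ces2e and lower in Ces2a, so the ratio is no further test. Ces2c, a liver lipid hydrolase, had 19.3 ± 5.85 CPM in IRE1PKO and 31.4 ± 9.29 CPM in IRE1fl (SD, n = 3 each). It did not pass (log2 fold change -0.70, SE 0.32, edgeR adjusted p = 0.243), though without IRE1fl library 1 it did (-0.93, adjusted p = 0.046). With any other library left out Ces2c did not pass, and it was -0.53 without IRE1PKO library 1 (adjusted p = 0.434). Ces2g did not pass (log2 fold change 0.26, SE 0.09, edgeR adjusted p = 0.098), and Ces2b, Ces2h and the pseudogene Ces2d-ps were below 2 CPM on average and were not called. Ces1a, Ces1h and Ces2f had at most 10 counts in any library and Ces5a had none.

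Sums over near copies do not depend on how counted reads were split within a subfamily. Stretches shared with genes outside it, such as Gm7208 for Ces2a, are not covered by a sum. The 8 Ces1 rows together had 3779, 4125 and 3256 CPM in IRE1PKO and 3690, 4168 and 4121 CPM in IRE1fl, a difference that did not pass (log2 fold change -0.10, SE 0.12, edgeR adjusted p = 0.65). The 8 Ces2 rows had 509.8, 543 and 527 CPM in IRE1PKO and 512, 512 and 479 CPM in IRE1fl (log2 fold change 0.07, SE 0.09, edgeR adjusted p = 0.675). Both sums overlapped between the genotypes although Ces1b, Ces2a and Ces2e were called within them. All 20 rows took 0.554%, 0.636% and 0.564% of the counts in the IRE1PKO libraries and 0.619%, 0.710% and 0.683% in the IRE1fl libraries. Their sum was not called (log2 fold change -0.27, SE 0.12, edgeR adjusted p = 0.18).

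The make-up of the family's counts differed more than its total. Ces3b gave 2.57%, 2.24% and 4.62% of the carboxylesterase counts in IRE1PKO and 6.48%, 6.95% and 9.78% in IRE1fl. Ces1d gave 13.6%, 13.8% and 13.3% in IRE1PKO and 7.01%, 10.4% and 7.99% in IRE1fl. Neither gene's shares overlapped between the genotypes, nor did those of any other described gene except Ces1c, so this is not particular to Ces3b and Ces1d. The share of Ces1c, the most counted gene, overlapped, with 39.3%, 36.4% and 31.3% in IRE1PKO and 39.1%, 35.0% and 37.0% in IRE1fl. A share rises when others fall, so these are not changes in level.

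**Figure D3:**
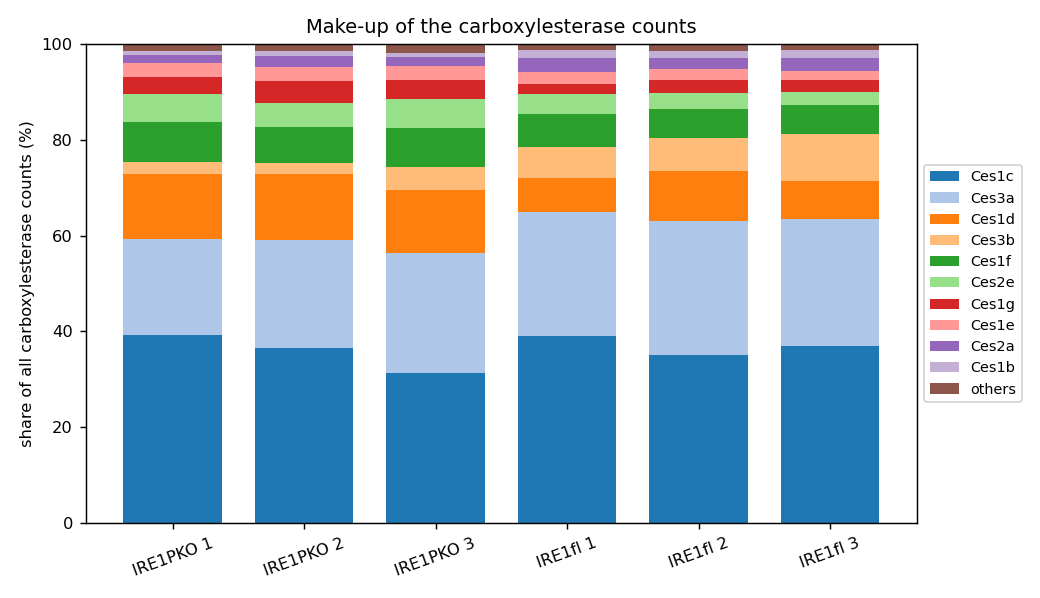
Share of each gene in all carboxylesterase counts (percent, vertical axis) in each IRE1PKO and IRE1fl library. The Ces3b band is 2.24% to 4.62% in IRE1PKO and 6.48% to 9.78% in IRE1fl, and the Ces1d band 13.3% to 13.8% in IRE1PKO and 7.01% to 10.4% in IRE1fl.

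Of 15 tested genes of other liver esterases and lipid ester hydrolases, 4 were higher and 2 lower, with a median log2 fold change of 0.01. Lipa, the lysosomal acid lipase, rose by 0.69 (SE 0.10, edgeR adjusted p = 0.00181), and Nceh1, a cholesteryl ester hydrolase of the endoplasmic reticulum, by 0.68 (SE 0.13, adjusted p = 0.0101). Bche, the plasma butyrylcholinesterase, rose by 0.47 (SE 0.09, adjusted p = 0.00811), and Pon3, a lactonase, by 0.42 (SE 0.10, adjusted p = 0.0199). The lower genes, named after their values were seen, were Aadac, an arylacetamide deacetylase that like the carboxylesterases cleaves ester drugs in the endoplasmic reticulum, and Lcat, the plasma cholesterol acyltransferase. Aadac fell by 0.38 (SE 0.10, edgeR adjusted p = 0.032) and Lcat by 0.39 (SE 0.11, adjusted p = 0.0489).

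Nr1i2 and Nr1i3, which encode xenobiotic receptors, and Hnf4a, which encodes a liver transcription factor, were looked at because they are known for control of drug metabolism genes, and none of these was called. They were picked from a longer list after their values were seen. The log2 fold change was 0.12 (SE 0.09) for Nr1i2, 0.10 (SE 0.19) for Nr1i3 and -0.28 (SE 0.10, edgeR adjusted p = 0.0918) for Hnf4a. Of 4 tested genes listed as partners or for retention in the endoplasmic reticulum (Gusb, Kdelr1, Kdelr2 and Erp44), none passed. Their median log2 fold change was -0.08.

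Most of the 5 calls were lost in some fit with 1 library left out, as the plot shows. Each such fit has fewer libraries to test. Over all genes 255 to 616 were called lower in these fits, beside 577 with all 6 libraries. Whether a call was lost through fewer libraries or through the values of the library left out was not tested. The fold changes of the 5 genes kept their sign in every such fit, but Ces1b was the only 1 of them called in all 6. All 5 were called without IRE1fl library 1, 4 without IRE1PKO library 3, 3 without IRE1fl library 2 or IRE1PKO library 2, and 1 without IRE1fl library 3 or IRE1PKO library 1.

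**Figure D4:**
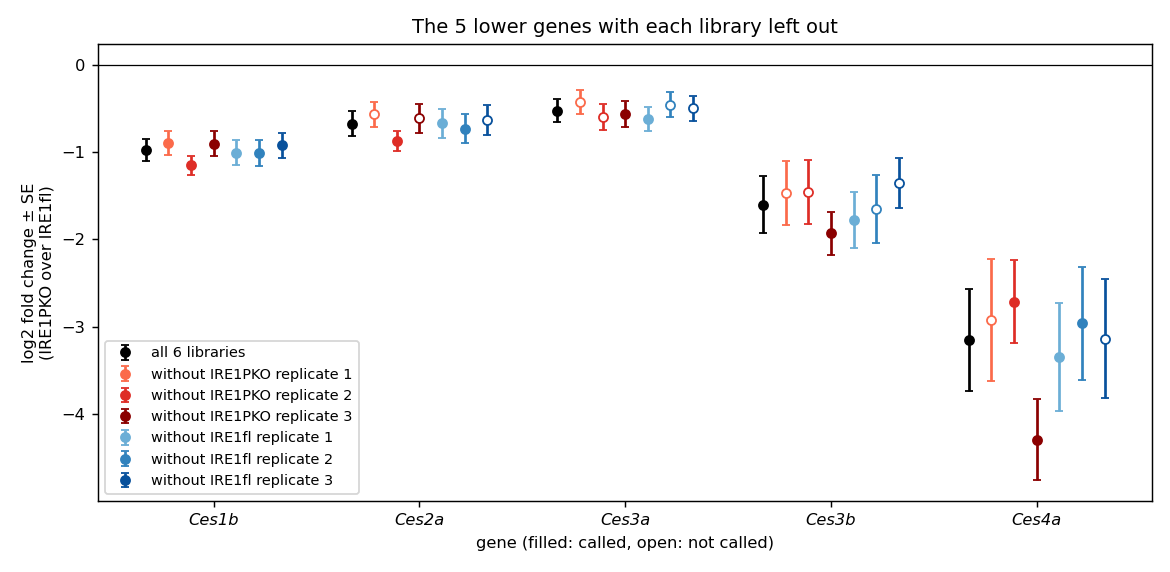
Log2 fold change (IRE1PKO over IRE1fl, ± SE) of the 5 genes called lower, with all 6 libraries and with each left out, where filled points passed an edgeR adjusted p of 0.05. All points lie below 0, and Ces1b alone is filled throughout.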

How the data were processed

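RNA selected for poly(A) from mouse liver was sequenced in 6 libraries, 3 of genotype IRE1PKO and 3 of IRE1fl. Raw counts were deposited by the authors in 1 table, with gene symbols as rows and a column per library, matched to samples by genotype and replicate number. Per the submitters' processing notes the build was mm10; aligner, counter and annotation were not stated. Even low counts outnumbered odd ones by 2.58 to 3.19 times, so the counts may hold both mates of a pair. Depth was 35776219 to 39277435 counts per library.

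Of 35976 rows, 14954 passed edgeR's filterByExpr. TMM scaling and the two-sided quasi-likelihood test with robust fitting came from edgeR 4.0.16 under R 4.3.3, and p-values were adjusted over all tested genes by the Benjamini-Hochberg method. The steps were checked on simulated counts. CPM are counts per 1e6 of the TMM-scaled total. The SE of a log2 fold change is its size divided by the square root of F. Each subfamily was also tested as 1 summed row. Separate animals are not stated, so a p-value reflects variation among these libraries only, possibly technical. Alternatives used DESeq2 1.42.0, limma 3.58.1 (voom), other scalings and filters, a replicate block, and leaving out single libraries. Halved counts were added after seeing the data.

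All members are named, with further carboxylesterases and, from the other lists, up to 4 called genes of smallest p. Part of the list of regulators of drug metabolism genes is not reported here. The members and lists were chosen with earlier results of these data known. Sequences come from RefSeq (GRCm38.p6) and GENCODE M21. Transcripts were aligned with Biopython 1.88.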

Additional observations from a re-analysis of the deposited data

How the results depend on the processing

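The calls among the members changed most when single libraries were left out, which also leaves fewer libraries to test. With each library left out in turn, 1 to 5 of the 10 carboxylesterases were called lower and 0 to 1 higher. The 1 higher was Ces1d without IRE1fl library 2. Over all genes 398 to 868 were then called higher and 255 to 616 lower. The log2 fold change of the Ces3 sum ran from -0.82 to -0.60 and that of the whole family from -0.34 to -0.23. No member or sum changed sign in any of the 15 alternatives. Under other scalings, filters and tests, 5 members were called lower, or 4 without the filter on low counts. The DESeq2 Wald test called 890 genes lower, and Ces2c with them (adjusted p = 0.0261).

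Whether the replicate numbers pair the libraries cannot be settled from 3 libraries a group. Deviations of same-numbered libraries correlated with r of 0.0712, -0.0216 and 0.101. IRE1PKO libraries 1 and 3 correlated best with their own number, and IRE1PKO library 2 did not. With the replicate block, 1 member was called higher, Ces1g (adjusted p = 0.033), 5 were lower, Ces2c was called lower (log2 fold change -0.70, adjusted p = 0.00686), and over all genes 1051 were higher and 814 lower. With 3 libraries a group, genes near the floor of 3 counts in both genotypes, such as Ces1a and Ces1h, could not be compared. Ces4a was near that floor in IRE1PKO library 2, which limits the size given for its fall.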
